A study of Mus musculus with 4 samples.

Results

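T cells and natural killer (NK) cells made up 289 of the 54754 cells kept from 4 single-cell libraries of mouse brain. A kept cell had 200 to 6000 genes and at most 10% mitochondrial UMIs, a UMI being a counted RNA molecule. A cell was chosen by its own counts: it held a UMI of at least 2 of the 7 genes Cd3d, Cd3e, Cd3g, Trbc2, Nkg7, Klrd1 and Ncr1, and a UMI of at most 1 of the 5 genes C1qa, C1qb, Cd79a, Cd79b and S100a8, which mark microglia and macrophages, B cells and neutrophils. Chosen cells with a UMI of a Cd3 gene were called T cells (257 cells) and those without one NK cells (32 cells). The levels of these 12 genes, and of genes that go with them, are therefore given as a description. The libraries came from the ipsilateral hemisphere of male C57/BL6 mice labelled 8 weeks old, perfused with cold saline, with papain digestion and a Percoll step that removes myelin. In transient middle cerebral artery occlusion (tMCAO), a filament closes the artery and is then withdrawn, and hemispheres were taken 1, 3 and 7 days later. The sham mice had the operation without the occlusion, and the series places the sham hemisphere at day 7. Each group was 1 library and the number of mice behind it is not given in the sources used here, so no difference between groups could be tested. The 95% intervals below cover counting error only and leave out the spread between mice.

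T cells carry an antigen receptor made of variable chains and the invariant Cd3 chains, and the coreceptors Cd8 and Cd4 separate the cytotoxic from the helper lineages. A smaller lineage uses gamma and delta receptor chains and often makes interleukin 17 in barrier tissues and in the meninges. NK cells have no rearranged receptor, read activating and inhibitory receptors such as Ncr1 (NKp46), Klrb1c (NK1.1) and the Ly49 family (Klra genes), and kill with perforin and granzymes. The healthy brain holds few of these cells, mostly at its borders, and lymphocytes are known to enter the brain in the days after a stroke.

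The NK receptor Ncr1 and the granule genes Gzma, Gzmb and Prf1 were at least 2-fold higher in NK than in T cells of day 7. The DNA before their starts is shown for that reason. Ncr1 is 1 of the 7 genes of the rule, so that its level in NK cells is partly fixed by the choice of cells. Each sequence is the 250 bases before the RefSeq start (build GRCm38.p6), on the strand of the gene. Capitals mark TGTGGT or its reverse complement ACCACA, the core motif of RUNX factors, searched on both strands. Ncr1 (chr7:4337465-4337714, plus strand) held the motif 2 times.
Ncr1: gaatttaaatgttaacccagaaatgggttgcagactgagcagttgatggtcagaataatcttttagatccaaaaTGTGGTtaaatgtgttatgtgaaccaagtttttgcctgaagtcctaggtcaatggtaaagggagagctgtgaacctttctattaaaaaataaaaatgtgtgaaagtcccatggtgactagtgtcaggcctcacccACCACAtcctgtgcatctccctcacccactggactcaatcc
Gzma: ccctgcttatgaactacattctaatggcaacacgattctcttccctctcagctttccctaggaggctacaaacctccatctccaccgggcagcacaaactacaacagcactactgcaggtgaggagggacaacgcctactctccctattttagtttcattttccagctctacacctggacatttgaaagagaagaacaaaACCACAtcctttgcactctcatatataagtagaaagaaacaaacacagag
Gzmb: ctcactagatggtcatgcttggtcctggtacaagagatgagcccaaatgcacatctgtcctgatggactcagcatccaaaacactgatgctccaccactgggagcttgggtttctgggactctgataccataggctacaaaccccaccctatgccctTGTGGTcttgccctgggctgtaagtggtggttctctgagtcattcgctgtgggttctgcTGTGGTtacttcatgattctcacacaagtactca
Prf1: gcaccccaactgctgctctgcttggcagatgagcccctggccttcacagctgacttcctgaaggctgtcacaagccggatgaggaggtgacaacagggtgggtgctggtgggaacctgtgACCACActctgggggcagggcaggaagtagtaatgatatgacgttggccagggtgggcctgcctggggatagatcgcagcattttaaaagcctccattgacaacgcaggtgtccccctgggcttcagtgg
The Gzma window (chr13:113100982-113101231, minus strand) held 1 match, the Gzmb window (chr14:56262335-56262584, minus strand) 2 and the Prf1 window (chr10:61297586-61297835, plus strand) 1. Of 17 genes looked up, 12 had a window. The letters were in none of the windows of Cd3d, Cd3e, Cd3g, Gzmk, Ifng and Cd8a, and in 1 place each for Nkg7 and Xcl1. Of all 32851 windows of this length, 14% hold the motif, so a match is a description of the sequence and not a site of binding.

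The 4 libraries held 10193 kept cells for sham and 16714, 11298 and 16549 for days 1, 3 and 7, with median depths of 5493, 3783, 3809 and 3178 UMIs. The chosen cells numbered 32, 40, 94 and 123 in the same order, at median depths between 3478 UMIs (day 1) and 7258 UMIs (day 3). Pairs of libraries shared 33 to 88 cell barcodes, and 0 barcodes were shared among the chosen cells. Scrublet, a doublet caller, marked 14 of the 289 cells, 2, 2, 0 and 10 by library.

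T and NK cells were scarce in the sham and day 1 libraries and more frequent on days 3 and 7. Their share of kept cells was 0.314% (0.215 to 0.443) in sham, with 0.239% (0.171 to 0.326), 0.832% (0.673 to 1.02) and 0.743% (0.618 to 0.886) after 1, 3 and 7 days. At 7 days it was 2.37 (1.59 to 3.61) times the sham share and 3.11 (2.16 to 4.56) times the day 1 share, both intervals lying above 1. Day 1 could not be told from sham at this depth, at a ratio of 0.762 (0.467 to 1.25). Day 3 over sham was 2.65 (1.76 to 4.09). Without the droplets that also held vessel RNA, described below, it was 1.50 (0.913 to 2.52), an interval that includes 1. T cells alone gave 0.285% (0.191 to 0.408), 0.221% (0.156 to 0.305), 0.761% (0.609 to 0.939) and 0.634% (0.519 to 0.768) of kept cells. NK cells gave 0.0294% (0.00607 to 0.0860), 0.0179% (0.00370 to 0.0524), 0.0708% (0.0306 to 0.139) and 0.109% (0.0645 to 0.172), from 3, 3, 8 and 18 cells. The NK share of day 7 was 6.06 (1.77 to 32.1) times that of day 1, a wide interval that rests on few cells. T cells made up 90.6%, 92.5%, 91.5% and 85.4% of the chosen cells. With the 32, 39, 92 and 121 chosen cells of at least 1000 UMIs thinned to 1000 UMIs, 28, 28, 58 and 103 still met the rule, and T cells made up 92.9%, 78.6%, 91.4% and 81.6% of these. A share of kept cells depends on how well every other cell type came through the dissociation, and more cells and better recovery cannot be told apart here.

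**Figure D1:**
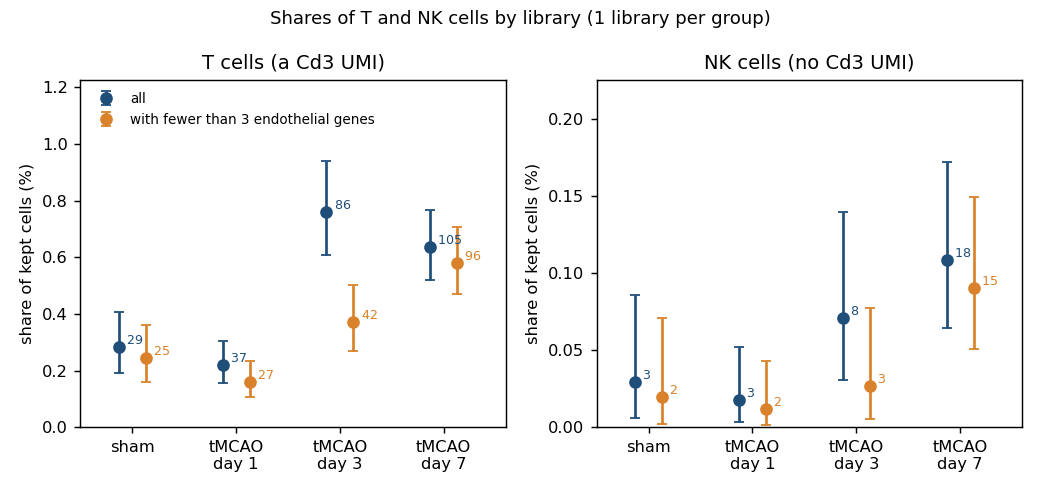
Share of kept cells (%) that were T cells (left) or NK cells (right) in each library, with 95% exact binomial intervals and the number of cells beside each point. Blue points are all cells of the class and orange points those with a UMI of fewer than 3 of 5 endothelial genes: the day 3 T cell share is 0.761% with all cells and 0.372% with the smaller set, and the day 7 share is 0.634% and 0.580%.

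The day 3 values rest in large part on droplets that also held RNA of vessel cells. A UMI of at least 3 of the 5 endothelial genes Cldn5, Ly6c1, Flt1, Pecam1 and Itm2a was found in 5, 11, 49 and 12 of the chosen cells, in the order sham and days 1, 3 and 7, and so in 77 of 289 in all. This limit was set after the data were seen. In the day 3 library these were 52.1% (41.6 to 62.5) of the chosen cells, and their median depth of 10746 UMIs stood above the 4631 UMIs of the others. Of the 77 cells, 44 held the smooth muscle gene Acta2, 40 a haemoglobin gene, 13 S100a8 or S100a9 and 51 the leukocyte gene Ptprc, and Scrublet marked 7. Without them the shares were 0.265% (0.175 to 0.385), 0.174% (0.116 to 0.249), 0.398% (0.291 to 0.533) and 0.671% (0.552 to 0.807). Day 3 over sham then came to 1.50 (0.913 to 2.52) in place of 2.65 (1.76 to 4.09), an interval that includes 1, and day 7 over day 3 to 1.68 (1.18 to 2.44) in place of 0.893 (0.677 to 1.18). Day 7 over sham was 2.53 (1.65 to 4.01), close to the value with all cells. Levels in T cells are therefore given both ways where it matters, for all T cells and for the 25, 27, 42 and 96 T cells below the limit, and the part of vessel RNA in each result was not tested. Of all kept cells, 60.5% reached the same limit.

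**Figure D2:**
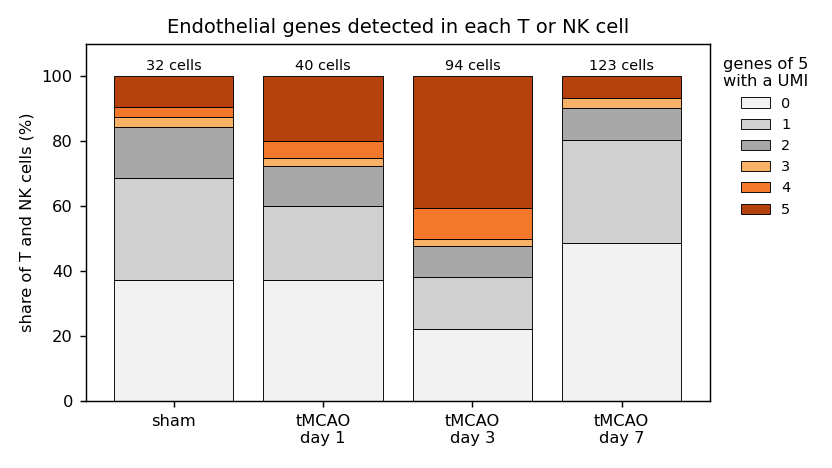
Share of T and NK cells (%) of each library by the number of 5 endothelial genes with a UMI, from 0 (light grey) to 5 (dark orange). The orange segments, cells with 3 or more, hold 52.1% of the day 3 cells and 9.76% of the day 7 cells.

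The labels held up unevenly against other genes. Ptprc, which encodes the leukocyte surface protein CD45, had a UMI in 30, 29, 64 and 115 of the chosen cells by library, 82.4% of all. The number of the 7 marker genes found in a cell was 2 in 25 cells, 3 in 38, 4 in 69, 5 in 92, 6 in 62 and 7 in 3. Just outside the rule stood 517 kept cells with a UMI of 1 marker, and 3 cells of day 3 were left out for holding more than 1 of the 5 excluded genes. Just inside it, 16 T cells rested on a single Cd3 UMI, 12 of them on day 3. Among the NK cells, a UMI of Ncr1 or Klrb1c was found in 3, 2, 3 and 18, so that 1 of 3 cells on day 1 and 5 of 8 on day 3 had neither. Those 5 day 3 cells each passed the rule on 2 or 3 marker UMIs in all, held at least 4 of the 5 endothelial genes and had 149 to 2849 UMIs of Ttr, a choroid plexus gene. The day 1 cell held 11 UMIs of Klrd1 and all 5 endothelial genes, together with 198 UMIs of Cd74, 60 of H2-Ab1 and 20 of Ccr7, genes of antigen-presenting dendritic cells. These 6 cells are counted as NK cells by the rule and are not otherwise shown to be NK cells.

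Outside the 7 marker genes, the gene that set the chosen cells furthest apart from the other kept cells was Ccl5 (chr11:83525778-83530518, minus strand, build GRCm38), which encodes the chemokine RANTES. Its mean level over the 4 libraries was 4635 CPM (UMIs per 1e6 UMIs of the summed cells) in the chosen cells and 5.70 CPM in the rest. Gzma, a granzyme, stood at 1127 against 0.107 CPM, and Ms4a4b, a membrane protein of T and NK cells, at 782 against 0.327 CPM. Cd52, a leukocyte surface glycoprotein, was at 2100.1 against 57.8 CPM. Xcl1, the chemokine that draws cross-presenting dendritic cells, was at 496 against 0.110 CPM. These genes go together with the markers that chose the cells, so the values describe the choice.

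Most T cells with a coreceptor UMI were of the Cd8 kind. Cd8a (chr6:71373427-71379173) or Cd8b1 (chr6:71322788-71337494) without Cd4 was found in 17, 11, 43 and 56 of the 29, 37, 86 and 105 T cells (sham, then days 1, 3 and 7), and Cd4 without Cd8 in 2, 2, 4 and 8. Only 1 T cell, in the sham library, held both. The share with Cd8 was 62.1% (42.3 to 79.3) in sham, with 29.7% (15.9 to 47.0), 50% (39.0 to 61.0) and 53.3% (43.3 to 63.1) after 1, 3 and 7 days. It was lowest on day 1, though the day 1 interval overlapped each of the others. In the other kept cells, which should lack Cd8, the share was 0.0492%, 0.0120%, 0.107% and 0.0791%, at median depths of 5498, 3784, 3771 and 3160 UMIs against 4990, 3681, 7136 and 4944 UMIs in T cells. With the 29, 36, 84 and 103 T cells of at least 1000 UMIs thinned to 1000 UMIs, the order of the libraries was the same, at 48.3%, 16.7%, 28.6% and 36.9%, and so it was in T cells below the endothelial limit, at 64%, 25.9%, 50% and 54.2%. Neither coreceptor was detected in 9, 24, 39 and 41 T cells, and at these depths a missing UMI does not show that a cell lacks the protein.

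**Figure D3:**
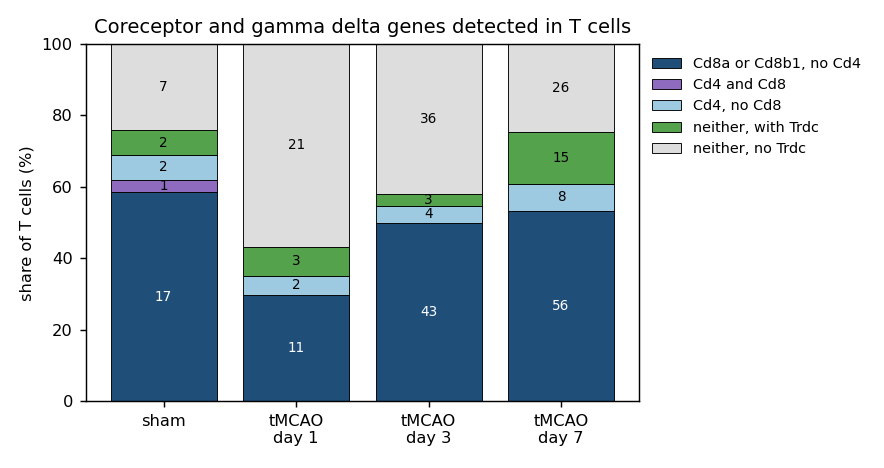
Share of T cells (%) of each library by coreceptor UMIs: Cd8 only, both, Cd4 only, and neither, the last split by a UMI of the delta chain gene Trdc. Cells with Cd8 only number 17 of 29 in the sham library, 11 of 37 on day 1, 43 of 86 on day 3 and 56 of 105 on day 7, and Trdc cells number 2, 3, 3 and 15.

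UMIs of gamma delta genes were found in every library and in the most T cells on day 7. Trdc (chr14:54142851-54148868), the constant gene of the delta chain, had a UMI in 2, 3, 3 and 15 T cells, or 6.90% (0.846 to 22.8), 8.11% (1.70 to 21.9), 3.49% (0.725 to 9.86) and 14.3% (8.22 to 22.5) of T cells. Trdc UMIs were not limited to T cells, as 6 of the 32 NK cells had one as well, 1, 1, 0 and 4 by library, and 1 of the 2 sham T cells with Trdc also held 17 UMIs of NK receptors. All 23 of the T cells with Trdc lacked Cd4 and Cd8, 6 also had a UMI of Trac, the alpha chain constant gene, and 18 had a UMI of a gene of the interleukin 17 programme. The summed level of Trdc over all T cells was 26.1 CPM (8.46 to 60.8) in sham, with 161 CPM (111 to 226), 32.9 CPM (21.3 to 48.5) and 193 CPM (160.4 to 229) after 1, 3 and 7 days. Without the cells above the endothelial limit it was 34.0, 0, 67.7 and 211 CPM, so the 3 Trdc cells of day 1 all lay above that limit. Cd163l1 (Scart1), a scavenger receptor of gamma delta T cells that make interleukin 17, was at 41.7, 53.7, 43.4 and 102 CPM, and Trdv4, the variable segment of the same cells, at 5.21, 24.4, 13.1 and 99.3 CPM. Il17a (chr1:20730905-20734496), the cytokine itself, came from very few cells: 71 UMIs from 1 sham T cell, 54 from 5 on day 1, 35 from 2 on day 3 and 114 from 4 on day 7. The day 7 over sham comparison had 3 of 11 genes of the gamma delta and interleukin 17 list at least 2-fold higher (Trdc, Trdv4 and Maf) and 0 lower. Among all genes of that comparison, 0.751% were at least 2-fold higher.

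UMIs of other T cell kinds were found in few cells. Foxp3, the factor of regulatory T cells, had a UMI in 0 T cells of the sham, day 1 and day 3 libraries, which allows shares of up to 11.9%, 9.49% and 4.20%, and in 2 on day 7. These limits are on cells with a UMI and not on cells that express the gene. Ncr1 or Klrb1c, receptors of NK cells, had a UMI in 3, 5, 5 and 10 T cells. None of these 23 cells held Cd8, 14 held Trac, and 1 rested on a single Cd3 UMI, so that they carried T and NK genes at once. At least 2 of 6 cell cycle genes were found in 2, 0, 7 and 9 T cells and, below the endothelial limit, in 1, 0, 2 and 8. Mki67, a protein of dividing cells, summed to 36.5, 0, 19.7 and 84.1 CPM. A variable segment of the beta chain (Trbv) was counted in 3, 1, 4 and 19 T cells, too few to read clones from these libraries.

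The comparisons over time used the summed UMIs of the T cells of each library, 191871, 204751, 760860 and 654309 UMIs, scaled to CPM. A gene was compared where both libraries together gave it at least 10 UMIs, and was counted as higher or lower from a 2-fold difference in CPM after 50 CPM were added to both sides. This is a size of difference and not a test. The 3 comparisons with sham share the sham cells. Depending on the comparison and direction, 0.751% to 3.11% of genes passed this limit, which is the background for the counts of named lists.

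Markers of other cell types differed between the libraries beside these values. Summed over T cells, for sham and then days 1, 3 and 7, the 5 endothelial genes came to 1121, 2452, 4863 and 695 CPM, the 5 oligodendrocyte genes to 3263, 4532, 1178 and 769 CPM and the 5 mural genes to 1996, 933, 1376 and 1172 CPM. The 3 choroid plexus genes came to 954, 73689.5, 45682 and 28037 CPM and the 3 erythrocyte genes to 136, 24.4, 3599.9 and 27.5 CPM. The 5 neutrophil genes, among them S100a8, which the rule limits, came to 5.21, 0, 216 and 3.06 CPM. Endothelial and erythrocyte RNA was highest on day 3, mural RNA in sham and oligodendrocyte RNA on day 1. The 8 microglia and macrophage genes, 2 of them limited by the rule, were at 31.3, 44.0, 57.8 and 36.7 CPM, and the 6 B cell genes, 2 of them limited by the rule, at 67.8, 39.1, 43.4 and 55.0 CPM. The leukocyte list, which includes Ptprc and Cd52, was 6525, 3385, 3458 and 6519.9 CPM, and so the T cells of days 1 and 3 held less leukocyte RNA for their depth than those of sham and day 7. The part of this in the differences between libraries was not tested. Below the endothelial limit the leukocyte list was 7354, 4734, 7676 and 7011 CPM. RNA of other cell types still differed there. For days 1, 3 and 7, the oligodendrocyte list was 2.04, 0.0230 and 0.205 times sham and the mural list 0.128, 0.655 and 0.263 times. The choroid plexus list was 3.12, 1.21 and 31.7 times sham and the endothelial list 1.54, 1.63 and 0.940 times, with intervals that include 1.

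On day 1 the effector genes of T cells stood far below sham. All 10 compared genes of the cytokine and death ligand list were at least 2-fold lower (Ifng, Tnf, Xcl1, Ccl3, Ccl4, Ccl5, Fasl, Tnfsf10, Csf2 and Ltb), with a median log2 difference of -1.65 against -0.05 over all 5042 genes compared. Of all genes, 3.11% were at least 2-fold lower and 2.99% at least 2-fold higher. Ccl5 stood at 7739.6 CPM (7351 to 8143) in sham, with 2183 CPM (1985 to 2395), 1660.0 CPM (1569.7 to 1754) and 5886 CPM (5701 to 6074) after 1, 3 and 7 days. Below the endothelial limit it was 8978, 3857, 3649.8 and 6469 CPM, again highest in sham. In sham the 4 T cells with the most Ccl5 held 685 of its 1485 UMIs. The top 4 held 226 of 447, 383 of 1263 and 1269 of 3851 on days 1, 3 and 7. Ifng (chr10:118441046-118445892, plus strand), the interferon that activates macrophages and microglia, was 563 CPM (462 to 679.6) in sham, with 63.5 CPM (33.8 to 109), 449 CPM (403 to 499.7) and 301 CPM (261 to 346) after 1, 3 and 7 days. Sham and day 3 lay highest and day 1 lowest. Below the endothelial limit it was 673, 142, 1163 and 331 CPM for sham and days 1, 3 and 7, highest on day 3 and lowest on day 1. Ccl4, the chemokine MIP-1beta, was 1866, 200.2, 682 and 494 CPM for sham and days 1, 3 and 7. Xcl1 (chr1:164931644-164935527) was 990.2, 205, 276 and 359 CPM in the same order. In sham, 1 T cell held 74 UMIs of Xcl1, of 134 in the T cells without Cd8 below the endothelial limit. The summed cytokine list of day 1 was 0.237 (0.216 to 0.259) times that of sham, and 0.365 (0.330 to 0.403) times below the endothelial limit.

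The day 1 difference extended to coreceptors, granule genes and interferon-response genes. Both compared coreceptor genes, Cd8a and Cd8b1, were at least 2-fold lower than in sham. Of the cytotoxic granule list, 6 of 10 genes were lower, with a median log2 difference of -1.07, which came to -0.49 below the endothelial limit. Among them was Nkg7, which the rule uses, so that the level of this list is partly fixed by the choice of cells. Gzmb (chr14:56258838-56262260, minus strand), the granzyme that triggers apoptosis, was 792, 132, 338 and 403 CPM, yet 90 of its 152 sham UMIs came from 1 T cell, and below the limit, which leaves that cell out, it was 408, 285, 465 and 451 CPM. Of 7 interferon-response genes, 5 were lower, among them Isg15, Ifit3, Irf7 and Ifi27l2a. Ifi27l2a, a small protein induced by type I interferon, was 1949 CPM (1757 to 2157) in sham, with 400.5 CPM (319 to 497), 548 CPM (497 to 603) and 1557 CPM (1463 to 1656) after 1, 3 and 7 days. Dusp2, a phosphatase induced by receptor signalling, was 1887, 195, 695 and 1371 CPM, and its log2 difference of -2.98 was the lowest of the genes named for day 1 over sham. Cd226, an adhesion receptor of killer cells, gave 0 UMIs on day 1 and 109, 0, 51.3 and 174 CPM by library. In the T cell receptor complex list 1 of 7 genes (Trbc1) was lower, and its summed level was 5196, 2984, 2820.5 and 4411 CPM. In T cells below the endothelial limit it was 5600.4, 4559, 6213 and 4744 CPM, so that day 3 went from lowest to highest. Of its 7 genes, 4 are used by the rule, so that its level is partly fixed by the choice of cells.

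Among the T cell lists, Trdc, Areg, S1pr1 and Igfbp4 were at least 2-fold higher on day 1 with all T cells, and below the endothelial limit Trdc gave 0 UMIs. The naive and central memory list summed to 1.21 (1.05 to 1.39) times sham with all T cells and 2.81 (2.29 to 3.46) times below the limit, and its median log2 difference went from 0.04 to 1.22. Il7r, the interleukin 7 receptor of naive and memory cells, was 99.0, 229.5, 95.9 and 234 CPM, with a UMI in 8, 20, 27 and 42 cells, and below the endothelial limit it was 122, 438, 228 and 256 CPM. S1pr1, the receptor through which T cells leave tissue for the blood, was 31.3, 127, 149 and 79.5 CPM, but endothelial cells make it too, and below the limit it was 13.6, 131, 12.7 and 55.5 CPM. Areg, a growth factor of repair-type T cells, gave 57 UMIs in 3 day 1 cells, with 41 in 1 of them, and 36.5, 1.31 and 0 CPM in the sham, day 3 and day 7 libraries. Among the genes furthest above sham were Ttr, Igfbp2, Vtn and Calml4, which belong to choroid plexus and vessel wall cells. Ttr, the transthyretin of the choroid plexus, reached 71330.5 CPM on day 1 against 813 CPM in sham, and 3 T cells held 14393 of its 14605 UMIs. Below the endothelial limit the log2 differences of these 4 genes were 1.69, 0.34, -0.13 and 0.29.

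**Figure D4:**
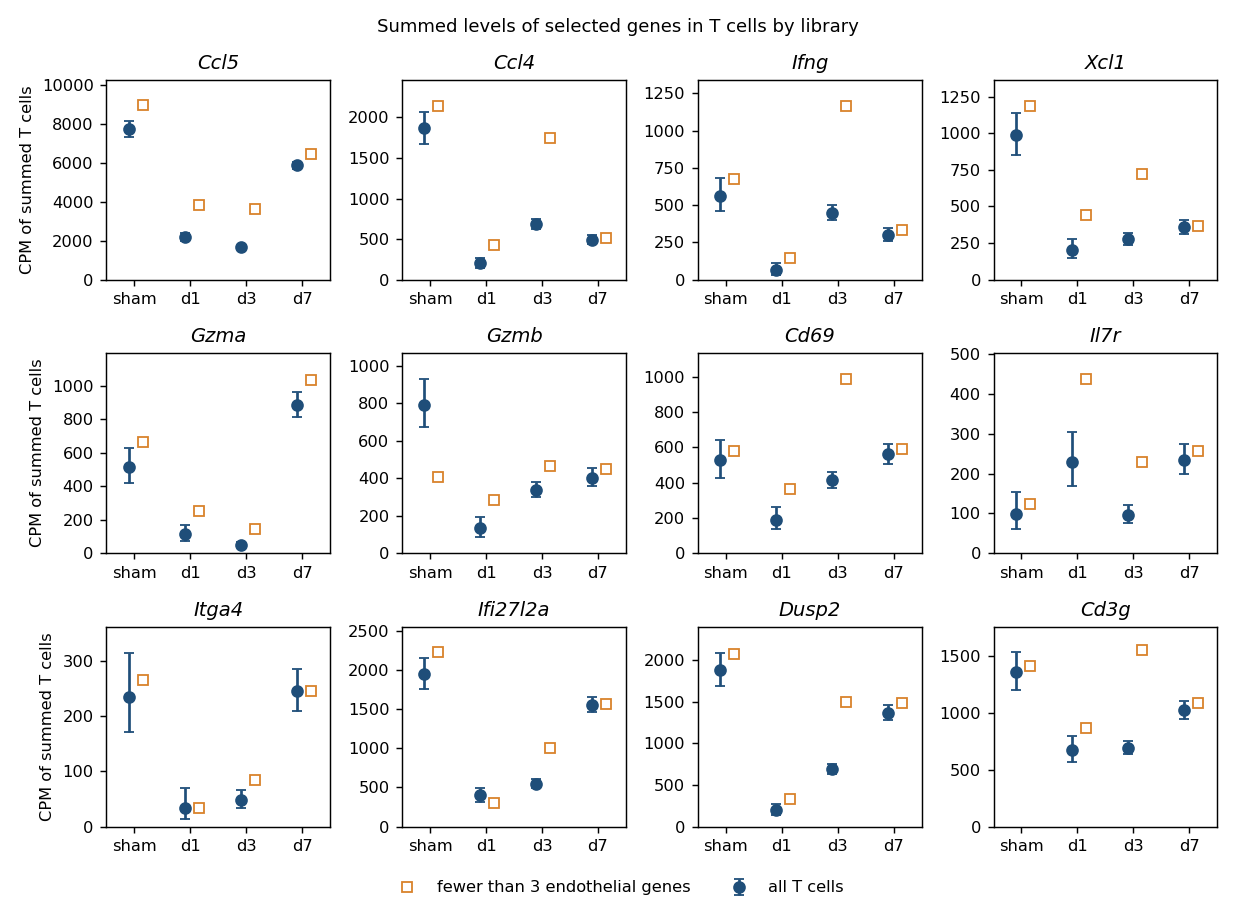
Summed level (CPM, linear axes that start at 0) of 12 genes in the T cells of each library, with 95% Poisson intervals for counting error. Filled points are all T cells and hollow squares the T cells with fewer than 3 endothelial genes: Ccl5 is lower on day 1 than in sham with either set of cells, whereas Ifng on day 3 is 449 CPM with all T cells and 1163 CPM with the smaller set.

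On day 3 the cytokine and granule lists stood below sham with all T cells, and below the endothelial limit the cytokine sum still did. With all T cells, 5 of 11 cytokine genes were at least 2-fold lower, with a median log2 difference of -0.74, which came to -0.15 below the endothelial limit. Its sum was 0.303 (0.287 to 0.320) times that of sham, and 0.611 (0.575 to 0.649) times below the limit. For the cytotoxic granule list the counts were 4 of 9 lower, with medians of -0.97 and 0.09 and sums of 0.565 (0.523 to 0.610) and 0.943 (0.857 to 1.04) times sham. Of all 8491 genes, 1% were at least 2-fold lower and 2.18% at least 2-fold higher. Even so, in T cells below the endothelial limit Ccl5 remained under sham, at a log2 difference of -1.29. So did Gzma at -1.89, Fcer1g, a signalling adaptor, at -1.26 and Tyrobp, another such adaptor, at -1.78. The sham level of Gzma came mostly from 1 Cd8 cell, with 90 of 99 UMIs. Cd69, a surface protein of recently activated and tissue-resident cells, was 526, 190.5, 414 and 561 CPM by library, and 578, 362, 989.6 and 589 CPM below the limit, where day 3 was highest. The genes furthest above sham were Lcn2, Ackr1, Ifitm1, Abhd2 and Vcam1, of which Ackr1 and Vcam1 are genes of venous endothelium. Below the endothelial limit the log2 difference of Lcn2 went from 5.76 to 0.42 and that of Ackr1 from 3.97 to 0.23. That of Ifitm1 went from 3.57 to 1.13 and that of Abhd2 from 2.98 to 0.60. Of the 86 T cells of day 3, 26 held more than 100 Ttr UMIs each, 32832 of 33321 in all. All 26 lay above the endothelial limit, and 22 of them held at most 4 Cd3 UMIs. All 5 endothelial genes of the limit and all 3 erythrocyte genes compared were higher on day 3. Cldn5, the tight junction protein of vessels, was 391, 894, 1337 and 180.3 CPM and, below the limit, 40.8, 87.7, 21.1 and 12.5 CPM. Vcam1 gave a log2 difference of 2.77 with all T cells and -0.18 below the limit.

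By day 7 the receptor and granule lists of T cells stood close to sham, and the cytokine and NK receptor lists below it. The T cell receptor complex and the cytotoxic granule list had 0 of 7 and 0 of 10 genes past the limit, and the summed granule list was 0.872 (0.810 to 0.938) times that of sham. Of all 7988 genes, 1.04% were at least 2-fold lower and 0.751% at least 2-fold higher. Of the cytokine list, 3 of 11 genes were lower (Xcl1, Ccl4 and Csf2) and 0 higher, and its sum was 0.625 (0.595 to 0.656) times that of sham, or 0.583 (0.554 to 0.614) times below the endothelial limit. Of the NK receptor and regulator list, 4 of 14 genes were lower (Ncr1, Klra8, Fcer1g and Tyrobp) and 0 higher. The list holds Ncr1 and Klrd1, which the rule uses, so that its level is partly fixed by the choice of cells. Its sum was 0.593 (0.523 to 0.672) times that of sham, or 0.714 (0.619 to 0.826) times below the limit. On day 1 the sum was 0.573 (0.484 to 0.676) times that of sham, and 1.21 (1.003 to 1.46) times below the limit. On day 3 it was 0.272 (0.236 to 0.314) and 0.568 (0.474 to 0.679) times, with 6 of 13 genes lower with all T cells. Of the 29 sham T cells, the 3 with Ncr1 or Klrb1c held 25, 17 and 9 UMIs of NK receptors. No other sham T cell held more than 6. The part of those 3 cells in these ratios was not tested. Ccl4 had a log2 difference of -1.82, and -1.95 below the limit. Itga4, the integrin chain by which lymphocytes bind Vcam1, was 235, 34.2, 47.3 and 245 CPM by library, and below the limit 265, 32.9, 84.6 and 245 CPM, so that sham and day 7 lay together, well above days 1 and 3. Hspa1a, a heat shock protein, was 516, 405, 603 and 56.5 CPM, lowest on day 7. Among the genes furthest above sham were Ttr, Enpp2, Igfbp2 and Folr1, all of them choroid plexus genes. They stayed above sham below the endothelial limit, but 3 of the 105 T cells held 17111 of the 17402 Ttr UMIs, and with at most 3000 genes per cell Ttr, Enpp2 and Igfbp2 lay below sham. The median T cell of day 7 held 2 Ttr UMIs, against 6 in sham.

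Set against day 1, the day 7 cells were higher in 6 cytokine genes and in some genes of other lists. Of the cytokine list, 6 of 10 genes were at least 2-fold higher (Ifng, Ccl3, Ccl4, Ccl5, Fasl and Tnfsf10) and 0 lower. Its sum was 2.64 (2.42 to 2.87) times that of day 1 with all T cells and 1.60 (1.45 to 1.76) times below the endothelial limit, with median log2 differences of 1.08 and 0.62. The leukocyte list was 1.93 (1.78 to 2.09) times that of day 1, and 3 of 5 endothelial and 5 of 5 oligodendrocyte genes were at least 2-fold lower. Their part in these differences was not tested. Of all 8105 genes, 1.96% were at least 2-fold higher and 1.76% at least 2-fold lower. Other groups lay in the same direction: 2 of 10 granule genes, 5 of 10 proliferation genes, 3 of 10 residency genes (Cd69, Rgs1 and Itga4), 2 of 5 integrins (Itgb1 and Itga4), 3 of 10 interferon-response genes (among them Irf7 and Ifi27l2a) and Cd8a. The summed proliferation list was 1.60 (1.43 to 1.80) times that of day 1, and 1.24 (1.08 to 1.44) times below the endothelial limit. The summed naive and central memory list lay in the other direction, at 0.674 (0.602 to 0.755) times that of day 1. Below the endothelial limit it was 0.458 (0.397 to 0.530) times. The regulatory T list, which holds Areg, was 0.713 (0.578 to 0.883) and 0.501 (0.392 to 0.646) times. The NK receptor and regulator list was 1.03 (0.892 to 1.20) times with all T cells and 0.589 (0.502 to 0.693) times below the limit. Gzma (chr13:113093825-113100981, minus strand) had a log2 difference of 2.53, from 23 UMIs on day 1 and 580 on day 7. Of these, 17 on day 1 came from 1 cell and 437 on day 7 from 4 cells. Dusp2 had one of 2.53, and 2.03 below the endothelial limit. Cd226 went from 0 to 114 UMIs in 64 cells. Hist1h2ap, a histone gene used in dividing cells, had one of 2.20. Of the genes furthest in the other direction, Areg and Hspa1b were lower with all T cells and below the endothelial limit. Calml4 turned from -1.83 to 0.89 below the limit, where the 3 day 7 T cells with more than 100 Ttr UMIs remained. There the choroid plexus list was 10.2 (9.06 to 11.4) times that of day 1.

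T cells with a Cd8 UMI differed from those without one in the same library. The comparison used cells below the endothelial limit, 52 with and 44 without Cd8 on day 7, at median depths of 5268 and 4096 UMIs. The cells with and without Cd8 numbered 16 and 9 in sham, 7 and 20 on day 1 and 21 and 21 on day 3. Some cells without a UMI will be Cd8 cells that were read too thinly. Gzmk, a granzyme of memory Cd8 cells, was 166 against 12 CPM, a ratio of 13.8 (4.48 to 69.4). It was higher in Cd8 cells in all 4 libraries, at ratios of 6.05, 5.58, 6.23 and 13.8, though the day 1 interval of 0.448 to 293 includes 1. Ifng on day 7 was 448 against 187 CPM, a ratio of 2.39 (1.71 to 3.41), while the day 1 ratio lay on the other side at 0.338 (0.0364 to 1.55), an interval that includes 1. Nkg7, a granule protein used by the rule, was 1600.4 against 797 CPM, a ratio of 2.01 (1.70 to 2.38) on day 7, with a ratio of 0.882 (0.542 to 1.41) on day 1, an interval that includes 1. Ccl5 was 6743 against 6133 CPM, a ratio of 1.10 (1.03 to 1.18) on day 7 and 13409 against 3124 CPM, a ratio of 4.29 (3.69 to 5.02) in sham, while the day 1 ratio was 2.36 (1.91 to 2.94) and the day 3 ratio 1.09 (0.955 to 1.25). In sham, 1 Cd8 cell held 291 of the 1123 Ccl5 UMIs of Cd8 cells. On day 1, where Cd8 cells held 197, 1 of the 7 held 88 and another 71. The values without Cd8 rest in part on T cells that also held Ncr1 or Klrb1c. Without those cells, a choice made after the data were seen, the Ccl5 ratio was 6.66 (5.32 to 8.44) in sham, 6.27 (4.44 to 9.04) at day 1, 2.98 (2.45 to 3.66) at day 3 and 1.63 (1.51 to 1.77) at day 7, where 1 cell still held 528 of the 863 UMIs without Cd8. The Nkg7 ratio of day 1 was then 2.23 (1.16 to 4.41), from 28 UMIs in 7 Cd8 cells and 16 in 15 others. It was above 1 like that of day 7, which was 3.16 (2.56 to 3.93). The Gzmk ratio was then 3.89 (0.915 to 34.9) in sham and 3.82 (0.307 to 200) at day 1, both intervals that include 1. It was 11.1 (2.79 to 95.8) at day 3 and 11.5 (3.73 to 57.8) at day 7. Il7r was lower in Cd8 cells in all 4 libraries, on day 7 182 against 347 CPM, a ratio of 0.524 (0.368 to 0.742). The sham ratio of 0.482 (0.158 to 1.36) has an interval that includes 1. Without the T cells that hold Ncr1 or Klrb1c the sham ratio was 0.310 (0.102 to 0.875). Cxcr6, a homing receptor of resident T cells, was 175 against 283 CPM, a ratio of 0.620 (0.427 to 0.895) on day 7, and in sham the ratio was 1.28 (0.617 to 2.77), or 0.973 (0.452 to 2.22) without the T cells that hold Ncr1 or Klrb1c, both intervals that include 1. Gzma came from too few cells to compare: 1 cell held 90 of its 98 Cd8 UMIs in sham, 1 all 17 on day 1 and 1 all 30 UMIs without Cd8 on day 3, and 4 T cells held 437 of the 580 UMIs of day 7. Trdc gave 0 UMIs in the Cd8 cells of every library and 470.2 CPM in the cells without Cd8 on day 7.

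NK cells numbered at least 15 only in the day 7 library, where 18 cells gave 98157 UMIs, and only there were they compared with T cells. The limit of 15 cells was chosen after the data were seen. All 18 cells held Ptprc and Ncr1 or Klrb1c, and 1 held Trac. All 16 genes of the NK receptor and regulator list were at least 2-fold higher in NK cells, against 2.25% of all 7642 genes, and 2% were at least 2-fold lower. Ncr1 and Klrd1 in that list were used by the rule, and of the T cell receptor complex Cd3d, Cd3e and Cd3g were lower by the choice of cells. Trac was 10.2 against 498 CPM and Trbc2, which the rule uses only to choose members, 408 against 1071 CPM, both at least 2-fold lower in NK cells. Ncr1 (chr7:4337724-4345164, plus strand) was 346 CPM (239.9 to 484) in NK cells and 7.64 CPM (2.48 to 17.8) in T cells. Klrb1c (chr6:128778485-128789215, minus strand) was 621 CPM (475 to 798) and 29.0 CPM (17.5 to 45.3). Klra4 and Klra8, receptors of the Ly49 family, were 408 and 346 CPM in NK cells, and both gave 0 UMIs in T cells, whose interval reached 5.64 CPM. Eomes, a factor that NK cells need to mature, was 183 against 22.9 CPM. Il2rb, the receptor chain through which interleukin 15 keeps NK cells alive, was 876 against 211 CPM and was found in all 18 cells.

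Among the granule genes, 4 of 9 were higher in NK cells (Gzma, Gzmb, Prf1 and Serpinb9) and 1 lower (Gzmk). Gzma was 7039.7 CPM (6525 to 7585) in NK cells and 886 CPM (816 to 962) in T cells, and 12 of 18 NK cells against 18 of 105 T cells held a UMI of it. Gzmb was 1609.7 CPM (1368 to 1881) and 403 CPM (356 to 455), and Prf1 (chr10:61297833-61304680, plus strand), the pore-forming perforin, 448 CPM (326 to 602) and 53.5 CPM (37.3 to 74.4). These genes and Ncr1 are the ones whose upstream sequences are printed near the start, and the part of the motif in their levels was not tested. Gzmk was 0 in NK cells (interval up to 37.6 CPM) and 97.8 CPM in T cells. Of 10 cytokine genes, Xcl1, Ccl3, Ccl4 and Ccl5 were higher and Tnf lower. Ccl3, the chemokine MIP-1alpha, was 17.0 (12.6 to 23.2) times higher in NK cells, and Ccl5 reached 12022 CPM against 5886 CPM. The gene furthest above T cells was Irf8 (1223 against 21.4 CPM), a transcription factor better known from myeloid cells, at a ratio of 57.1 (32.8 to 108), with a UMI in 15 of the 18 cells. Tyrobp and Fcer1g, the adaptors of activating NK receptors, had ratios of 20.4 (14.9 to 28.1) and 16.4 (12.8 to 21.0). Below the endothelial limit, which leaves 15 NK cells, the log2 differences of these 3 genes were 4.29, 3.64 and 3.71.

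In the other direction NK cells held less RNA of several T cell programmes. Il7r was 50.9 CPM in NK cells, with a UMI in 2 of 18, and 234 CPM in T cells. Ifi27l2a was 102 CPM (48.9 to 187) against 1557 CPM (1463 to 1656), although the other interferon-response genes differed less, with Ifit3 the only other one of 10 past the limit. Of 10 proliferation genes, 5 were lower, and at least 2 cell cycle genes were found in 0 of 18 NK cells. Cd69 was 306 against 561 CPM, a difference below 2-fold on the scale with 50 CPM added. Ttr and Enpp2 were lower in NK cells and the 3 droplets of day 7 with more than 100 Ttr UMIs were counted as T cells. All 5 endothelial genes were higher in NK cells, with a median log2 difference of 1.52, and below the limit of 0.11.

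**Figure D5:**
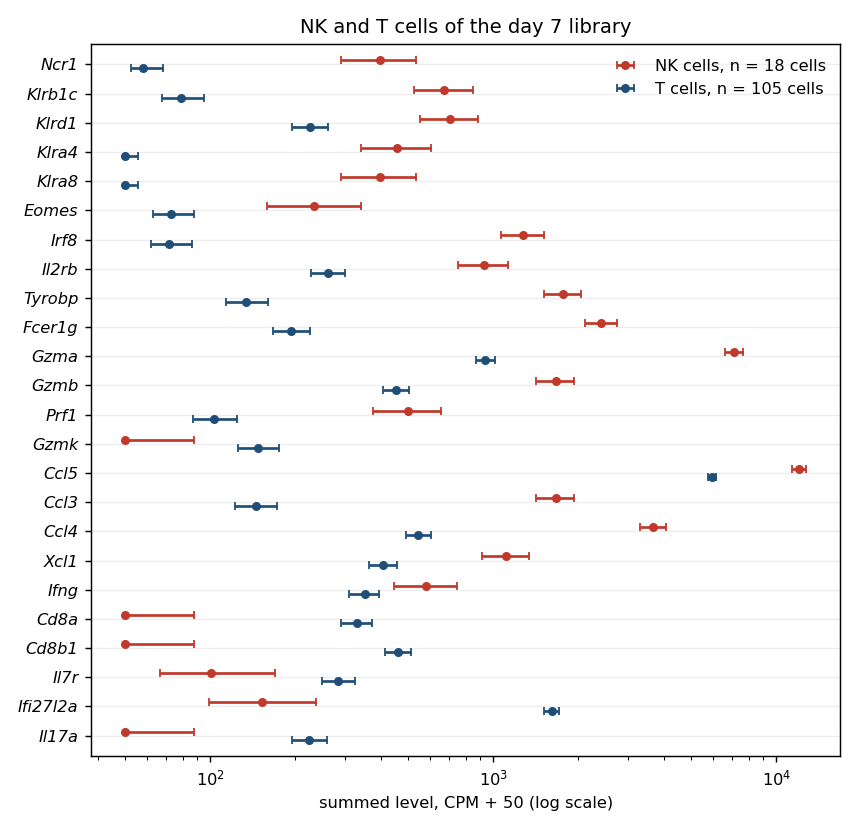
Summed level of 24 genes in the 18 NK cells and 105 T cells of day 7, in CPM + 50 on a log axis, 1 line per gene, with 95% Poisson intervals for counting error. Irf8, Tyrobp, Fcer1g, the NK receptors and Gzma lie to the right in NK cells, and Il7r, Ifi27l2a and the Cd8 genes in T cells.

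The NK cells of the other libraries were too few for a comparison, and only their values are given. The 3 sham cells had 47887 UMIs, all held Ncr1 or Klrb1c, and 2 of them were cycling by the rule above, with Mki67 at 418 CPM and Gzma at 9982 CPM from 2 cells. Of the 8 day 3 cells, 1 held 329 UMIs of Ccl5 and 64 of Gzma, and the 5 without Ncr1 and Klrb1c held 0 of Gzma. Of the 3 day 1 cells, 1 held 40 UMIs of Gzma and the others 0.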

How the data were processed

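The deposited 10x Genomics matrices hold the authors' UMI counts per gene and cell for 4 mouse brain libraries, filtered to cells and not normalised. Their headers name Cell Ranger 4.0.0, whereas the submitters' notes name Cell Ranger 3.0.1, Seurat 4.1.2 and a human build. Gene identifiers are of mouse, and 99.6% of the 31053 matched GENCODE vM21 (GRCm38). Libraries held 69392755 to 104023002 UMIs.

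Cells were filtered, chosen and named as the report states. The members and the 32 gene lists were chosen with earlier results of these data known. UMI counts were summed over the T or NK cells of a library and scaled to CPM, with exact Poisson, binomial (Clopper-Pearson) and conditional ratio intervals at 95%. Since cells of a library are not replicates, no p-values were computed. Up to 5 genes per direction were named by the size of the log2(CPM + 50) difference, among genes with at least 20 UMIs and 100 CPM in the higher library, and a few genes are not reported here. Scrublet (scanpy 1.11.5) marked doublets, which were kept, and edgeR 4.0.16 gave TMM factors for an alternative. Python 3.11.15, numpy 2.4.6, pandas 2.3.3, scipy 1.17.1 and R 4.3.3 were used. The 2-fold limit was tested on simulated data in which 200 genes were changed 4-fold up or down. It found 58% of them among 5014 genes for day 1 over sham, and 39.5% among 8301 for day 3. For day 7 it found 43.5% over sham and 42% over day 1. The simulated sums held counting error only and no spread between cells. Alternatives are given at the end. Promoter windows came from RefSeq (GRCm38.p6).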

Additional observations from a re-analysis of the deposited data

How the results depend on the processing

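Each result was computed again with 1 choice altered at a time, and the cause of each shift was not tested. Leaving out the cells with UMIs of at least 3 endothelial genes, a choice made after the data were seen, shifted the most values. It brought the day 3 share of kept cells from 0.832% to 0.398% for all chosen cells, from 0.761% to 0.372% for T cells and from 0.0708% to 0.0266% for NK cells. The ratio of day 3 to sham shares went from 2.65 to 1.50 (T cells 2.68 to 1.52), and that of day 7 to day 3 from 0.893 to 1.68 (T cells 0.834 to 1.56). The summed T cell receptor complex on day 3 turned from 0.543 to 1.11 times sham. The granule list over sham came to 0.695 on day 1, 0.943 on day 3 and 0.969 on day 7, and the cytokine list to 0.365, 0.611 and 0.583. Genes at least 2-fold higher numbered 73 in place of 151 for day 1 over sham and 65 in place of 185 for day 3 over sham, and genes lower in NK than T cells 232 in place of 153. The log2 differences of Vtn on day 1 (2.96 to -0.13), Vcam1 on day 3 (2.77 to -0.18) and Calml4 between days 7 and 1 (-1.83 to 0.89) turned sign.

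With at most 3000 genes per cell, the day 3 shares were 0.618% for all chosen cells and 0.565% for T cells, no sham NK cell was left (0%, and T cells were 100% of the sham cells), and the day 7 over day 3 ratios were 1.23 and 1.15 for T cells. The lists over sham were 0.704 for granule genes and 0.448 for cytokines on day 3, and 0.565 for cytokines on day 7, where 33 genes were lower in place of 83. For day 7 over sham, Ttr (4.95 to -0.85), Enpp2 (2.89 to -0.56) and Igfbp2 (2.04 to -0.024) turned sign. With at most 5% mitochondrial UMIs, the day 7 shares were 0.953% and 0.813% for T cells, the day 7 granule list turned from 0.872 to 1.07 times sham, the cytokine list was 0.744, Ttr and Enpp2 were -0.48 and -1.22, and day 7 over day 1 had 251 higher and 272 lower genes in place of 159 and 143.

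With a Ptprc UMI required, the shares were 0.566% on day 3, 0.156% for T cells on day 1 and 0.522% for T cells on day 3, with day 7 over day 3 ratios of 1.23 and 1.12 for T cells. The granule list was then 0.533 and 0.665 times sham on days 1 and 3, and the cytokine list 0.331, 0.452 and 0.673 on days 1, 3 and 7. With no UMI of the 5 excluded genes, day 3 gave shares of 0.611% and 0.558% for T cells and lists of 0.630 and 0.383. With 3 markers required, the day 3 NK share was 0.0266% and the day 3 cytokine list 0.342. The cytokine list of day 3 was 0.284 without Scrublet doublets, 0.322 with TMM scaling and 0.283 scaled without mitochondrial, haemoglobin and ribosomal protein genes, and that of day 7 was 0.575 without the doublets and 0.657 with TMM. With 2 Cd3 UMIs required, T cells were 78.7% of the chosen day 3 cells. Thinning to 1000 UMIs gave 78.6% on day 1, and thinning to 500 UMIs 73.9% in sham, with Cd8 in 11.6% of day 3 T cells.

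Counts of genes depended on the CPM added. With 10 in place of 50 CPM, 450 genes were higher and 583 lower for day 1 over sham, 1113 and 472 for day 3, 771 and 327 for day 7, 1168 and 518 for day 7 over day 1, and 635 and 1245 for NK over T cells. With at least 30 UMIs, day 1 over sham had 98 and 103. Leaving out T cells that hold Ncr1 or Klrb1c, a choice made after the data were seen, kept 17 of 25 ratios of Cd8 to other T cells within their intervals. The ratio of day 7 to sham shares of all chosen cells stayed above 1 under each alternative to the choice of cells. The planned comparison of NK with T cells in libraries with 20 cells of both could not be made, because none had 20 NK cells. No paired analysis was possible because each group is 1 library. Groups of 1 library leave the spread between mice unknown, and at 3 NK cells in each of the sham and day 1 libraries few differences could be seen.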

Other observations

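A further group of cells lay just outside the rule on day 1. Of the 303 kept day 1 cells with a UMI of 1 marker gene only, 287 held it from Trbc2, the constant gene of the T cell receptor beta chain, against 25 of 44 in sham, 24 of 81 on day 3 and 30 of 89 on day 7. Ptprc was found in 1.65% of these day 1 cells, and in 9.09%, 14.8% and 16.9% of the like cells of the sham, day 3 and day 7 libraries. Their median depth on day 1 was 11624 UMIs, above the 3783 UMIs of all kept day 1 cells. Such cells were also deeper in sham and on days 3 and 7, at 9712, 8116 and 4772 against 5493, 3809 and 3178 UMIs. Cells with 1 marker gene only were counted as neither T nor NK cells.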
